A study of Homo sapiens with 15 samples.

Results

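The RNA of cells made to express Flag/HA-tagged ZC3H7A was compared with that of cells made to express the Flag/HA tag alone. The comparison used the 3 tagged ZC3H7A libraries and the 3 tag control libraries, 6 of the 15 RNA-seq libraries of the study. It took in every gene that reached a normalized count of 10 in 3 or more of these 6 libraries, 17437 of the 55773 genes listed. All 6 came from Flp-In T-REx 293 cells, derivatives of the established human embryonic kidney line HEK293 in which a transgene sits at a fixed integration site and is switched on by doxycycline. Per the labels' protocols, induction was with 1 µg/mL doxycycline for 24 h, and doxycycline is given as the treatment of the control libraries too, so the drug is common to both groups. Cells were lysed in a hypotonic detergent buffer used for polysome preparation, and poly(A) RNA was taken from a part of each lysate. The labels call the 3 samples of a group independent replicates, but do not tell if 1 cell line or several were made for a transgene. The p-values below therefore measure the spread between these samples only, and a difference between cell lines and a difference made by the protein cannot be told apart. The other 9 libraries were 3 with tagged ZC3H7B, 3 parental and 3 labelled DD, and are used only where stated.

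ZC3H7A and its paralogue ZC3H7B are CCCH zinc-finger proteins, a family whose members bind RNA through cysteine and histidine residues held around zinc. Most amino acids have several synonymous codons that often differ in their last base. In human cells the choice among these codons is linked to how long an mRNA lasts and how well it is translated, and codons that end in G or C are on average the more stabilizing ones. The title of the study names codon dependence as its question, and the base at the end of each codon is therefore followed through the results.

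Library totals were 57.3, 46.5 and 50.5 M reads in the control and 45.5, 53.2 and 47.6 M reads with ZC3H7A. The biological coefficient of variation, edgeR's measure of the spread between replicates, was 2.03% in the control and 8.89% with ZC3H7A. Replicate 3 of ZC3H7A stood apart. Its score on the leading principal component was 25.98, against 41.3 and 42.2 for replicates 1 and 2 and between -36.9 and -35.9 for the controls. Its changes were mostly smaller. Of 531 genes that rose by 2 to 4-fold in replicates 1 and 2, 94.2% had a smaller rise in replicate 3, and of 1054 genes that fell by 2 to 4-fold, 91.7% had a smaller fall, with a median log2 difference of -1.26 in replicates 1 and 2 and -0.91 in replicate 3. The counts of called genes and the codon slope are therefore also given without that library. Fold changes of single genes and medians of lists use all 3 ZC3H7A libraries unless replicates are named. Among markers of other cell types, summed normalized counts were 78.4 to 96.8 in the control and 90.5 to 119 with ZC3H7A over 11 leukocyte genes, with MS4A1 at 0. Over 7 endothelial genes they were 44.3 to 57.8 and 50.7 to 58.4, with EMCN at 0. Over 10 fibroblast genes they were 207 to 240.4 and 307 to 332. The 10 genes chosen to mark HEK293 cells, which express neuronal intermediate filaments and renal factors, summed to 18845 to 19412 and 26107 to 27969, and all 10 were detected. The 11 genes of keratin-rich epithelium summed to 3623 to 3802 in the control and 1889 to 2182 with ZC3H7A, and none was at 0. In bulk RNA, fewer cells expressing a marker and less of its RNA per cell cannot be told apart, and the part of these differences in the results was not tested.

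The targeted gene was higher in all 3 libraries that carry its transgene. ZC3H7A was at 3179.6, 3374 and 3223 normalized counts in the control and 10546, 10131 and 12898 with the transgene, so that the groups did not overlap. The log2 fold change was 1.77 (SE 0.081, limma adjusted p = 1.23e-07), a 3.42-fold rise in a count that may hold reads of both the transgene and the cell's own gene. Replicate 3, the library with the smaller changes elsewhere, held the most ZC3H7A. The paralogue ZC3H7B also rose, from 5951, 5818 and 6044 to 8252, 8288 and 7389.8, with a log2 fold change of 0.42 (SE 0.054). Its change was 0.14 once the trend of fold change with the G+C content of transcripts was removed.

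Most genes differed between the groups, and most differences were small. At a limma adjusted p under 0.05, 5928 of 17437 genes rose (34.0%) and 7062 fell (40.5%), so 74.5% of genes were called in either direction. The groups did not overlap for 78.4% of genes. The median size of change was 0.50 log2 units among genes that rose and 0.66 among genes that fell, and 60.8% and 42.3% of them changed by less than 1.5-fold. At least 2-fold, 695 genes rose (3.99%) and 1794 fell (10.3%). Among the 16848 genes that reached 10 in some library of each group, 34.3% rose and 39.4% fell. Rises were more frequent among coding genes, at 39.6%, with 39.02% falling. Of the 7178 genes averaging 1000 or more in either group, 3399 rose and 2652 fell. The 34.0% set beside gene lists below is therefore a low baseline for lists of abundant coding genes. The part of abundance in the list counts was not tested. The balance of the 2 directions differed between scalings and tests. It was 4973 genes up and 8139 down when libraries were scaled to total reads, 6544 and 6363 when centred on the median gene, and 6176 and 6014 with DESeq2, which also uses another test. Among the 13489 genes with a known base content, all of them coding, it was 6142 and 4311 once the base content trend was removed, and among all 13527 coding genes it was 5354 and 5278 with the trend in place. The median log2 fold change of all tested genes was -0.070 as deposited, -0.039 with TMM scaling and -0.17 with total-read scaling, and the medians of gene lists below are to be read against that shift. Removing the G+C trend moved the centre upward. Over the 274 runs of neighbouring genes described below, the middle run median was then 0.099. List medians with that trend removed, and their changes of sign, are to be read against this value. Without ZC3H7A replicate 3 the counts were 6315 up and 7561 down, and 5859 of the 5928 rises and 6965 of the 7062 falls remained called. In both groups together, 160 tested genes reached 10 in no control library and 429 in no ZC3H7A library.

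The coding sequences of 5 genes show the range of codon endings among the largest changes. Each line is the first 90 bases of the longest complete coding sequence in GENCODE 29 (GRCh38), in reading frame from the start codon, with the last base of every codon in capitals. AMOT and MUC16 are the largest rises and TENM1 and CEP290 the largest falls among abundant genes, and STMN3, chosen after its values were seen, is a strong rise with few codons ending in A or T.
AMOT: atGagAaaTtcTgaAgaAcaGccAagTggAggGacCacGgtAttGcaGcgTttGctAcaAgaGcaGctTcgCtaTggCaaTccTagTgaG
MUC16: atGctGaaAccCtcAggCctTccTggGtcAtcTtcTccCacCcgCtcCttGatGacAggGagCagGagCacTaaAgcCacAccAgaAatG
STMN3: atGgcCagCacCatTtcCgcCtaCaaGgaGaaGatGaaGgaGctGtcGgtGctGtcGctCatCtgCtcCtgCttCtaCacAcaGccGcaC
TENM1: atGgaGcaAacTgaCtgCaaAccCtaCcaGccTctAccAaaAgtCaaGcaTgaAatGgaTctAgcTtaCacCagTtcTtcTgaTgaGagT
CEP290: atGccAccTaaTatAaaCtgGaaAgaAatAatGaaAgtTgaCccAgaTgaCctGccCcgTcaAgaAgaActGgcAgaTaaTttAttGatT
Over the whole coding sequence, codons with A or T as last base made up 47.7% of AMOT, 52.4% of MUC16, 8.94% of STMN3, 52.4% of TENM1 and 70.7% of CEP290. In the 30 codons shown, 2 end in A or T in STMN3 and 20 in CEP290, and 17 do so in AMOT and in TENM1, which moved in opposite directions.

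Among genes with a mean of at least 1000 normalized counts in the higher group, AMOT had the largest rise. AMOT, which encodes angiomotin, a membrane-associated scaffold that binds YAP, was at 458, 419 and 399 in the control and 9909, 10051 and 9911 with ZC3H7A. Its log2 fold change was 4.55 (SE 0.059, limma adjusted p = 5.67e-11), a 23.4-fold rise shared evenly by the 3 libraries. MUC16, which encodes the very large membrane mucin known as CA125, rose from 181, 145 and 146 to 1256, 1231 and 1353, a log2 fold change of 3.02 (SE 0.091). RPL22L1, the paralogue of a large-subunit ribosomal protein, rose from 444, 435 and 437 to 2356, 2499 and 2524 (log2 fold change 2.48, SE 0.053). In none of these 3 was replicate 3 the lowest of the ZC3H7A libraries. CNN2, an actin-binding calponin, rose by 2.27 log2 units, from a mean of 371 ± 12.9 to 1794 ± 147 (SD, n = 3).

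The other 8 of the 12 largest rises lay between 1.77, for ZC3H7A, and 2.09, for BRSK2, on the log2 scale. BRSK2, a kinase of neuronal polarity, was at 455, 471 and 431 in the control and 2051, 1931 and 1817 with ZC3H7A (log2 fold change 2.09, SE 0.064). BAI1, an adhesion G protein-coupled receptor, went from 407, 397 and 418 to 1775, 1773 and 1621 (2.08). GNAO1, the G protein subunit Go alpha, went from 284, 270.2 and 288 to 1217, 1215 and 1018 (2.03). In all 3 the lowest ZC3H7A value was that of replicate 3 and lay far above the highest control. STMN3, a stathmin that binds tubulin, went from 855, 841 and 859 to 3693, 3356 and 3085 (1.98). INSM1, a zinc-finger factor of neuroendocrine differentiation, went from 644, 695 and 675 to 2711, 2688 and 2418 (1.95). C8orf82, with a log2 fold change of 1.78, and ZC3H7A itself are also among the 12. Of these 12, 8 were lower in ZC3H7A replicate 3 than in both other ZC3H7A libraries.

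TENM1 had the largest fall. The gene, which encodes a teneurin of neuronal connections, was at 1178, 1047 and 1045 in the control and 30.1, 15.5 and 35.5 with ZC3H7A, a log2 fold change of -5.36 (SE 0.23, limma adjusted p = 9.40e-08). CEP290, a protein of the ciliary transition zone, fell from 2501, 2434 and 2409 to 421, 292 and 649 (-2.50, SE 0.22). CENPE, the kinetochore motor that moves chromosomes in mitosis, fell from 2707, 2650.2 and 2685 to 475, 388 and 759 (-2.37, SE 0.19). In CEP290 and CENPE the replicate 3 value lay between those of the other ZC3H7A libraries and the control. The same held for all 12 of the largest falls, each of which was higher in ZC3H7A replicate 3 than in replicates 1 and 2. EEA1, a tether of early endosomes, fell from 2497, 2410.4 and 2506 to 493, 375 and 713 (-2.28). VPS13A, a bridge for lipid transfer between membranes, fell from 6774, 6105 and 6188 to 1234, 1049.9 and 1991 (-2.21). AKAP9, a scaffold of the centrosome and Golgi, fell from 4265, 4221 and 4161 to 753, 662 and 1231 (-2.31). Codons ending in A or T made up 52.4% of TENM1 and from 57.2% of SLC44A5 to 73% of ANKRD12 over the other 10 coding genes of the 12. The others were the choline transporter-like gene SLC44A5 (-2.45), the ankyrin repeat gene ANKRD12 (-2.32), FAM111B (-2.30), KIAA1033, a subunit of the endosomal WASH complex (-2.17), the DNA ligase gene LIG4 (-2.17) and the long non-coding RNA MAGI2-AS3 (-2.12). No source used here says if counting used the strand, so reads of an antisense RNA such as MAGI2-AS3 cannot be told apart from those of a gene it overlaps. With the G+C trend removed, the fall was -4.94 for TENM1, -1.45 for CEP290 and -1.35 for CENPE.

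**Figure D1:**
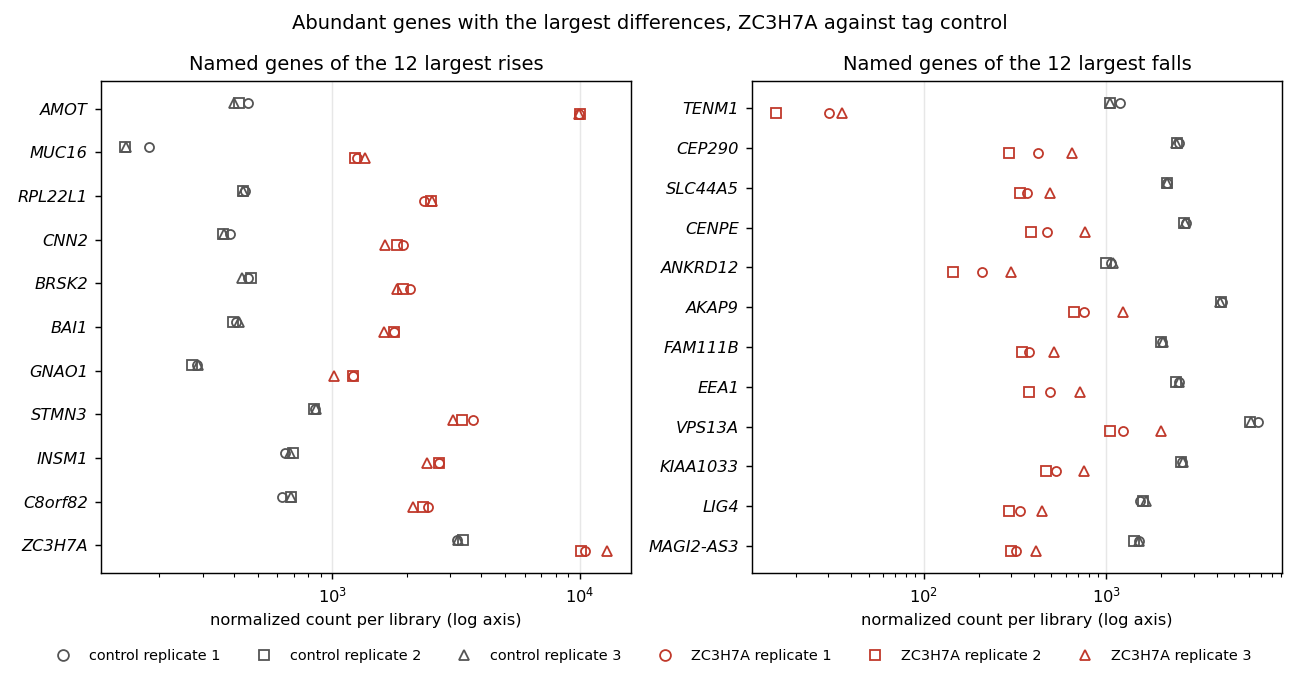
Normalized counts on a log axis for the named genes among the 12 largest rises (left) and 12 largest falls (right) of abundant genes. Each symbol is 1 library, grey for the tag control and red for ZC3H7A. No plotted gene overlaps between the groups, and the red triangles, ZC3H7A replicate 3, lie nearest the control in all 12 falls.

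A few genes were read in 1 group and almost not in the other. RPH3A, a vesicle protein of neurons, had 2 reads over the 3 control libraries and 3214 with ZC3H7A, a ratio of 1824 after scaling (95% exact interval 504 to 15064). THNSL2, a threonine synthase-like gene, had 0 and 701 reads and was at least 265-fold higher (lower limit of the interval 215). HTRA3, a secreted serine protease, had 0 and 619 and was at least 234-fold higher (lower limit of the interval 189.9). The homeobox gene HDX had 2 and 405 reads, a ratio of 229.8 (63.2 to 1904). These lower bounds set the empty group at 3 reads over its 3 libraries, and the intervals cover counting error only. In the other direction MFAP2, a microfibril protein, had 1893 reads in the control and 1 with ZC3H7A, and was 1668-fold lower (299 to 65923). SLC6A11, a transporter of the neurotransmitter GABA, had 984 and 0 and was at least 289-fold lower (lower limit of the interval 235). TMEM171 had 377 and 3, a 111-fold ratio (37.6 to 539).

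Fold change followed codon endings across coding genes. The description took the 11411 genes with a complete coding sequence and a mean of at least 100, and set each library's log2 difference from the control mean against the share of A/T-ending codons. For a control library, the mean of the other controls was used. In the 1142 genes with the smallest share, 0% to 19.1%, the median log2 fold change was 0.42, with 72.6% of genes called up and 12.7% down. In the 1141 with the largest share, 64.2% to 78.7%, it was -0.76, with 2.45% called up and 88.4% down. In the latter group the median was -0.84, -0.91 and -0.53 in ZC3H7A replicates 1, 2 and 3, and between -0.015 and 0.016 in the controls. The order was the same in each ZC3H7A library, and replicate 3 was the flattest.

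**Figure D2:**
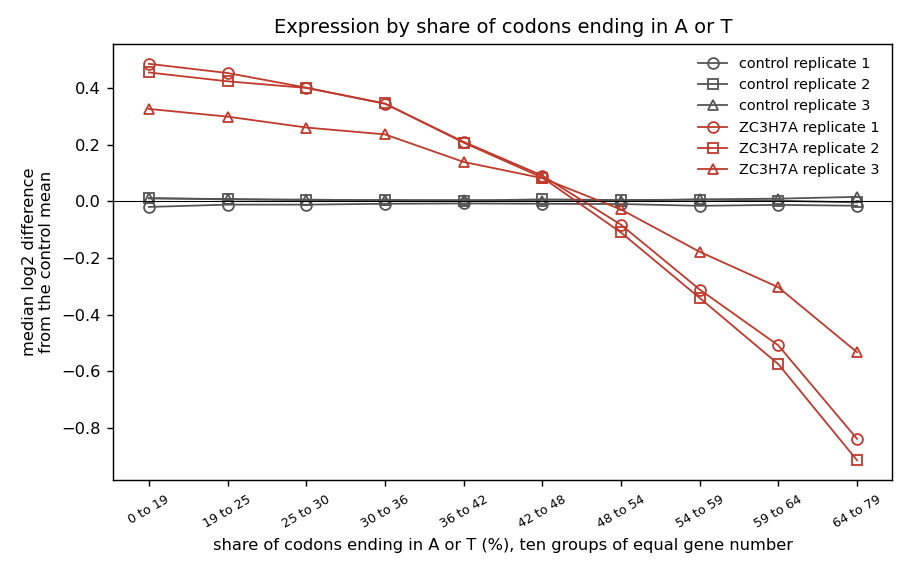
Median log2 difference from the control mean in groups of about 1141 genes ordered by the share of A/T-ending codons (x axis, percent), 1 line per library. Each control library is set against the mean of the other controls. Control libraries (grey) stay near 0, and the 3 ZC3H7A libraries (red) go from 0.33 to 0.49 in the lowest group to -0.91 to -0.53 in the highest.

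The slope per 10 percentage points of that share was -0.24, -0.25 and -0.15 log2 units in the ZC3H7A libraries and 0.0011, -0.0017 and 0.00065 in the controls. The mean was -0.21 ± 0.053 (SD, n = 3), and the exact two-sided permutation p over the 6 libraries was 0.1, the smallest that 3 against 3 allows. Without replicate 3 the mean slope was -0.24. Across genes, Pearson's r was -0.58, -0.59 and -0.45 in the 3 ZC3H7A libraries. These are descriptions over 11411 genes that share libraries, depth and base composition. With tagged ZC3H7B, measured against the same control libraries, the slopes were -0.19, -0.17 and -0.14. The direct difference between the proteins was -0.046, with an exact two-sided permutation p of 0.3, and the values of the groups overlapped.

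Single codons fell into 2 classes by their last base. For each of the 61 sense codons, its share of a gene's codons was correlated with the log2 fold change across the 11411 genes. All 30 codons ending in A or T had a negative r, from -0.48 to -0.00079, and 29 of the 31 ending in G or C had a positive one, up to 0.42. The lowest were -0.48 for the leucine codon TTA, -0.47 for the asparagine codon AAT, -0.46 for the lysine codon AAA and -0.46 for the glutamate codon GAA. The highest were 0.42 for the alanine codon GCC, 0.40 for the leucine codon CTG and 0.40 for the proline codon CCC. The exceptions among codons ending in G or C were the leucine codon TTG, at -0.27, and the single methionine codon ATG, at -0.056. Leucine thus held one of the most negative and one of the most positive codons.

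**Figure D3:**
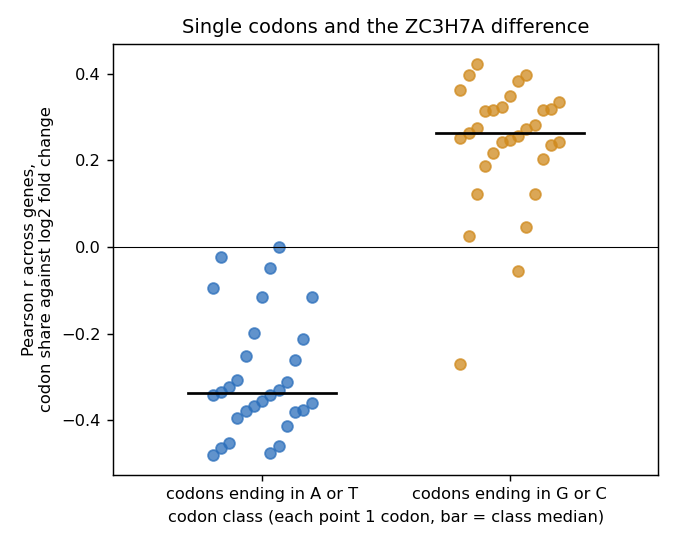
Pearson r across 11411 genes between a codon's share and the log2 fold change of ZC3H7A against control. Each point is 1 codon and the bar is the class median, -0.34 for the 30 codons ending in A or T and 0.26 for the 31 ending in G or C.

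The pattern was also present among synonymous codons, where the amino acid is held fixed. In each of the 18 amino acids with a choice, the share of its codons ending in A or T had a negative r with fold change, from -0.53 for leucine to -0.44 for cysteine. Amino acid content itself had smaller values. It was -0.31 for the share of asparagine, -0.25 for lysine and -0.24 for isoleucine, and 0.27 for alanine and 0.23 for proline.

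Base content outside the coding sequence moved with fold change as well. The slope on the A+T share of the untranslated part of the transcript was -0.37, -0.39 and -0.24 per 10 points in the ZC3H7A libraries. Genes were cut into 3 equal classes by codon share and by the untranslated A+T share. Within the highest codon class the median log2 fold change was -0.20 where the untranslated part was poorest in A+T, -0.24 in the middle and -0.55 where it was richest. Within the lowest codon class the same medians were 0.42, 0.30 and 0.041. Both measures therefore ordered the genes when the other was held in a class, though each class keeps some spread of the measure held. Coding length added less. In the highest codon class the median went from -0.34 for coding sequences of 37 to 360 codons to -0.56 for those of over 650, and in the lowest class from 0.41 to 0.34.

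Long non-coding RNAs, which have no codons, mostly fell or were not called. Of 634 tested, 86 rose and 337 fell (13.6% and 53.2%), against 39.6% and 39.02% of 13527 protein-coding genes, and the median log2 fold changes were -0.40 and -0.0037. Among the 203 with a mean of at least 100, the median was -0.12, -0.25 and -0.51 in 3 equal classes of lowest, middle and highest A+T share, and r was -0.28. Their slopes per 10 points of A+T were -0.28, -0.32 and -0.15 in the ZC3H7A libraries. The slopes of coding genes on the same measure were -0.48, -0.50 and -0.30. The long non-coding class includes antisense and sense-overlapping genes, and it is not known if counting used the strand. Reads of coding genes that they overlap may be part of their slopes, which was not tested. Of 125 intergenic RNAs named LINC, 18 rose and 66 fell, and LINC00665 rose from 1487, 1385 and 1444 to 4615, 4507 and 4298 (log2 fold change 1.64). Of 13 small nucleolar RNA host genes 7 rose and 5 fell, against 34.0% and 40.5% of all genes. SNHG12 was at -1.10 and SNHG3 at -1.01.

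Neighbouring genes changed together in parts of some chromosomes. Genes averaging at least 100 normalized counts were put in 274 runs of about 40 genes in gene order, and the median of each run was taken after the trend with G+C content was removed. The largest run median in any control library had a size of 0.042. With ZC3H7A the middle of the run medians was 0.099, with quartiles of 0.024 and 0.16. A cut of 0.3 in size around 0 is therefore nearer the middle on the raised side. The numbers of raised and lowered runs partly follow from that. With ZC3H7A, 30 runs had a median of at least 0.3, of which 15 were on chromosome 19, 6 on chromosome 8, 5 on chromosome 20, and 2 each on chromosomes 10 and 14. They held 1232 genes, of which 77.7% rose, and 254 of the 2-fold rises. Another 9 runs had a median of -0.3 or below, 5 on chromosome 1 and 2 each on chromosomes 2 and 12, and 74.3% of their 370 genes fell. The 235 other runs held 169 of the 2-fold rises and 626 of the 2-fold falls.

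The ZC3H7A libraries gave nearly the same run medians. In the run from ZNF540 to PSMC4 on chromosome 19 the median was 0.72, 0.72 and 0.76 in replicates 1, 2 and 3. From SAMD11 to WRAP73, at the end of chromosome 1, it was -0.54, -0.53 and -0.47, and from ELK3 to MTERFD3 on chromosome 12 it was -0.50, -0.55 and -0.53. Over whole chromosomes the highest medians were 0.52 on chromosome 20, 0.43 on chromosome 19 and 0.28 on chromosome 8, and the lowest was -0.18 on chromosome 21. On chromosome 19 the median was 0.44, 0.43 and 0.41 in replicates 1, 2 and 3, so replicate 3, with the flattest codon slope, differed little here. Without the genes of these 39 runs, the mean codon slope was -0.21 and 438 genes rose by at least 2-fold, an alternative chosen after the data were seen. The runs were picked by their own medians, so a value for genes outside them is lower or higher by construction and is only a description.

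**Figure D4:**
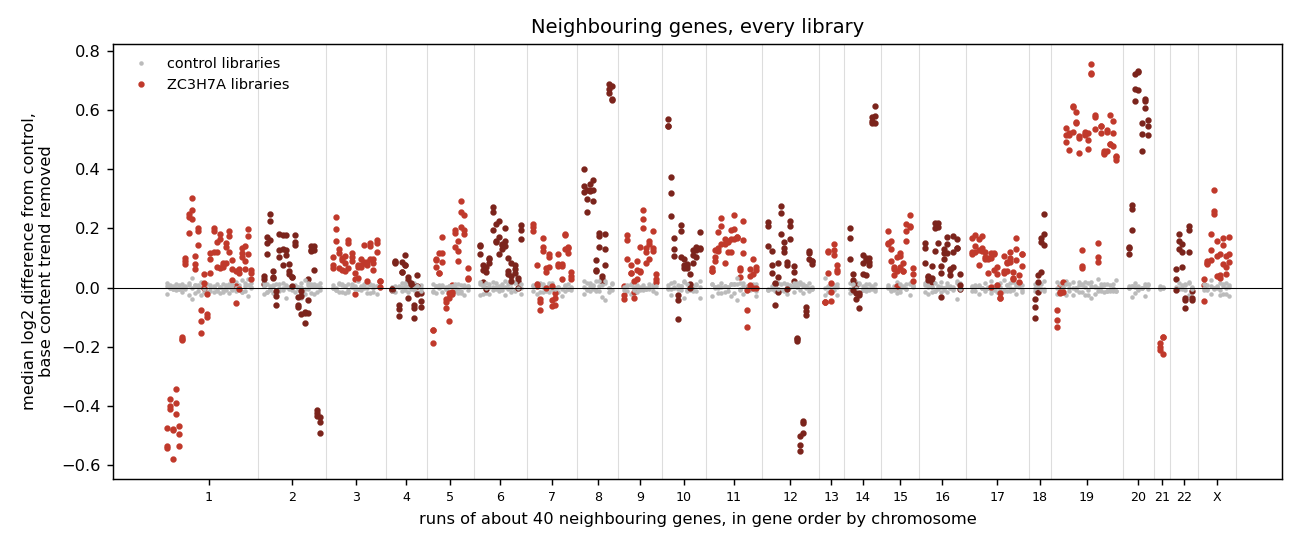
Median log2 difference from the control mean, G+C trend removed, in 274 runs of about 40 neighbouring genes ordered by chromosome, 1 dot per library. Control libraries (grey) stay within 0.042 of 0, and 30 runs, 15 of them on chromosome 19, have a ZC3H7A median (red shades) of 0.3 or above.

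Many of the genes named in the text lie in these runs. The raised runs hold CNOT3, CTU1, DLL3, DNAJB1, EIF3K, FARSA, FBL, FTL, KEAP1, LSM4, MRPS12, MUC16, NOTCH3, NUMBL, PSMC4, PSMD8, QTRT1, RPS16, SLC1A5, TEAD2, TUBB4A, ZNF320 and ZNF677 on chromosome 19, AGO2, BAI1, BOP1, C8orf82, CYC1, DUSP4, EEF1D, EIF4EBP1, EXOSC4, FDFT1, MYC, RPL8, SFRP1 and ZC3H3 on chromosome 8, BMP7, CDH4, CEBPB and STMN3 on chromosome 20, JAG2 and KIF26A on chromosome 14 and VIM on chromosome 10. The lowered runs hold AGRN, EIF4G3 and MFAP2 on chromosome 1, COL4A3, COL4A4, FARSB, GIGYF2 and NDUFA10 on chromosome 2 and HSP90B1 and KIAA1033 on chromosome 12. Of the 11407 genes placed in runs, 1232 lay in raised runs and 370 in lowered ones. The list counts that follow are of members placed in runs. Among the gene lists with at least 3 members in raised runs, these held 4 of 18 decapping factors and 4 of 10 stress response regulators. They held 6 of 40 initiation and elongation factors, 3 of 31 proteasome subunits, 3 of 19 cytosolic chaperones and 3 of 24 sterol genes. Also there were 3 of 20 p53 targets, 7 of 20 immediate early and AP-1 genes and 4 of 25 Notch genes. The same runs held 5 of 33 TGF-beta and BMP genes, 5 of 50 large-subunit and 8 of 31 small-subunit ribosomal proteins. For mitochondria it was 4 of 74 ribosomal proteins, 4 of 37 complex I subunits and 6 of 42 subunits of complexes II to V. They also held 5 of 28 potassium channels, 3 of 33 kinesins, 3 of 29 CCCH genes and 4 of 19 tRNA wobble enzymes. The largest lists had 17 of 179 solute carriers and 159 of 385 ZNF genes there. The lists with at least 3 members in lowered runs had there 3 of 18 ephrin and Eph genes and 3 of 33 kinesins. Of laminins and other basement membrane genes it was 3 of 21, and of solute carriers 5 of 179. The part of this position in the changes of these genes and lists was not tested.

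Factors that repress or degrade mRNA moved in both directions, as did genes in general, of which 34.0% rose and 40.5% fell. Of the 4EHP and GIGYF group, which block the cap of repressed mRNAs, 3 of 9 rose and 5 fell. EIF4EBP1, the inhibitor of the cap-binding factor eIF4E, went from 1887, 1943 and 1957 to 5516, 5174 and 4820.4 (log2 fold change 1.42), and GIGYF2 fell by 0.49. Of CCR4-NOT, the complex that removes poly(A) tails, 5 of 18 rose and 10 fell. Its median was -0.21 as measured and 0.03 with the G+C trend removed, and its subunit CNOT3, on chromosome 19, rose by 0.94. Of the decapping and 5' to 3' decay factors 11 of 18 rose and 2 fell, among them LSM4 (0.84) and LSM2 (0.82), subunits of the ring that binds the ends of deadenylated mRNAs. The nuclear exonuclease XRN2 rose by 0.54 although 62.7% of its codons end in A or T.

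Of the RNA exosome and its cofactors 6 of 17 rose and 8 fell, against 34.0% and 40.5% of all genes. EXOSC4 was at 1.06 and the helicase SKIV2L2 at -0.90. The exosome list had a median of -0.095, which was 0.006 with the G+C trend removed. In nonsense-mediated decay 9 of 14 rose and 4 fell. The exon junction helicase EIF4A3 rose by 0.66 and UPF3B, which links that complex to decay, fell from 2755, 2803 and 2932 to 1119, 1071 and 1414 (-1.25). Of the Argonaute and microRNA list 3 of 13 rose and 8 fell, with the slicing Argonaute AGO2 up by 1.13 and its partner TNRC6B at -0.62. That list's median changed from -0.16 to 0.04 with the G+C trend removed. EXOSC4, AGO2 and the CCCH gene ZC3H3 (1.48) lie in raised runs of chromosome 8. Over all 29 CCCH zinc-finger genes tested, ZC3H7A included, 10 rose and 13 fell. These shares, 34.5% and 44.8%, are near those of all genes. ZC3H8 fell by 1.29.

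Enzymes that modify the wobble base of tRNAs, with which the last base of a codon pairs, rose in 11 of 19 cases. Another 6 fell, and the shares of all genes were 34.0% up and 40.5% down. CTU1, which thiolates wobble uridine, went from 564, 597 and 530.5 to 1409.8, 1406 and 1211 (log2 fold change 1.25). QTRT1, which inserts queuine, rose by 0.94, and the cytosine methyltransferase NSUN2 fell by 0.81. The list's median was 0.25, and 0.0046 outside the shifted runs, 4 of the 19 genes being in raised ones.

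Most genes of the integrated stress response lists rose, against 34.0% of all genes, and 4 fell. In this response phosphorylation of the initiation factor eIF2 favours translation of the transcription factor ATF4, which drives genes for amino acid supply. Of its transcription factors and regulators 8 of 10 rose and 1 fell, with a median of 0.67 (0.78, 0.66 and 0.57 by replicate). ATF4 mRNA was at 9969.6, 10451 and 10129.5 in the control and 17383, 17154 and 16224 with ZC3H7A (log2 fold change 0.73, SE 0.046). TRIB3, a pseudokinase induced by ATF4, went from 838, 834 and 889 to 1872, 1689 and 1704 (1.04, SE 0.06). DDIT4, an inhibitor of mTORC1, rose by 1.05 and CEBPB, a bZIP partner of ATF4 in a raised run of chromosome 20, by 1.39. Outside the shifted runs the list's median was 0.67, and with the G+C trend removed 0.52.

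Of the stress response's genes for amino acid and one-carbon synthesis 12 of 14 rose and 0 fell, with a median of 0.63, or 0.62 with the G+C trend removed. ASNS, asparagine synthetase, rose from 3442, 3617 and 3599 to 7497, 6964 and 7193 (log2 fold change 1.02, SE 0.048), although 58.4% of its codons end in A or T. PSAT1 of serine synthesis rose by 0.79, PYCR1 of proline synthesis by 1.25 and the alanine transaminase GPT2 by 0.91. None of the 14 lies in a raised run. Of the amino acid transporters 6 of 10 rose and 2 fell. The leucine transporter SLC7A5 rose by 1.26, the glutamine transporter SLC1A5 by 1.20 and the glycine transporter SLC6A9 by 1.51.

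The secreted factors and glutathione-degrading enzymes of the response rose in 5 of 6 cases. CHAC1, which breaks down glutathione, went from 67.8, 71 and 72.5 to 271, 243 and 235 (log2 fold change 1.81), the activin subunit INHBE rose by 1.28 and the hormone STC2 by 0.79. GDF15, a stress-secreted hormone that p53 also induces, was the exception, falling from 169, 153 and 161 to 38.5, 33.2 and 33.8 (-2.17, SE 0.10). Of the cytosolic aminoacyl-tRNA synthetases, which charge tRNAs, 12 of 20 rose and 6 fell, against 34.0% and 40.5% of all genes. The subunits of 1 enzyme, phenylalanyl-tRNA synthetase, moved apart. FARSA, with 20.3% of codons ending in A or T and in a raised run of chromosome 19, rose by 1.19. FARSB, with 62.4% and in a lowered run of chromosome 2, fell by 0.66.

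Most ribosomal protein genes rose, against 34.0% of all genes. Of the large-subunit ribosomal proteins 39 of 52 rose and 5 fell, with a median of 0.34, and of the small-subunit ones 25 of 31 rose and 1 fell, with 0.36. The medians by replicate were 0.38, 0.36 and 0.29 and 0.42, 0.40 and 0.30. RPL35, outside the raised runs, went from 8590.5, 8852 and 8946 to 19318, 18243 and 17001 (log2 fold change 1.05), and RPL8 (1.19) and RPS16 (0.99) lie within them. Ribosomal protein genes have many processed copies, so reads may be split between copies and the gene. Outside the shifted runs the medians were 0.34 and 0.28.

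Of the ribosome biogenesis genes 24 of 36 rose and 6 fell, against 34.0% and 40.5% of all genes. The rRNA methyltransferase FBL went from 17195, 18013 and 17641 to 47249, 44007 and 41450.4 (log2 fold change 1.33) and BOP1, needed for the large subunit, rose by 1.35, both within raised runs. Of the initiation and elongation factors 22 of 41 rose and 13 fell, with EIF3K at 1.08, EEF1D at 1.01 and the scaffold EIF4G3, in a lowered run of chromosome 1, at -1.12. Of the proteasome subunits 19 of 31 rose and 6 fell, with a median of 0.36 and of 0.32 outside the shifted runs. PSMC4 (1.27) and PSMD8 (1.21) of the regulatory particle are in 1 raised run, and PSMB3 of the core (0.78) is in none.

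Chaperones of the cytosol and of the endoplasmic reticulum (ER) differed in their counts. In the cytosol 11 of 20 rose and 5 fell, and in the ER and its unfolded protein response 5 of 22 rose and 10 fell. Over all genes 34.0% rose and 40.5% fell. Cytosolic HSP90AB1 went from 31955, 33497 and 32989 to 55487, 52996 and 49902 (log2 fold change 0.69), and the co-chaperone DNAJB1 rose by 1.36. The ER paralogue HSP90B1, in a lowered run of chromosome 12, went from 30309, 30962 and 31053 to 13904, 14334 and 16119 (-1.06), and DNAJC3 fell by 0.93. The ER list's median was -0.10 and became 0.058 with the G+C trend removed. The difference between the lists was not tested.

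For nuclear genes of mitochondrial proteins the counts stand against 34.0% of all genes called up and 40.5% down. Among coding genes alone the shares were 39.6% and 39.02%. Of the 7178 genes averaging 1000 or more in either group, 3399 rose and 2652 fell. Of the complex I subunits 25 of 38 rose and 8 fell, of complexes II to V 30 of 46 rose and 7 fell, and of the mitochondrial ribosomal proteins 38 of 75 rose and 18 fell. Cytochrome c1, encoded by CYC1 in a raised run, rose by 1.26, the Rieske protein UQCRFS1, in none, by 1.01, and MRPS12 by 1.46, while the complex I subunit NDUFA10 fell by 0.63. Of the 13 proteins encoded by mitochondrial DNA, 1 rose and 4 fell, with a median of -0.066, against -0.070 for all tested genes. Centred on the median gene, that list's median was 0.0033.

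Targets of p53, the stress-activated tumour suppressor, fell in 13 of 20 cases and rose in 4, against 40.5% and 34.0% of all genes. CDKN1A, the p21 inhibitor of cell cycle kinases, went from 4217, 4430.4 and 4457 to 2017, 1959 and 1689.5 (log2 fold change -1.21, SE 0.068). MDM2, the ubiquitin ligase of p53, went from 8197, 8167 and 8405 to 3433, 3309.8 and 4165 (-1.19, SE 0.078). ZMAT3 fell by 1.38 and TP53INP1 by 1.50. CDKN1A has 31.3% of codons ending in A or T and MDM2 69.2%, and with the G+C trend removed their changes were -1.48 and -0.75. The list's median was -0.39, -0.39 with that trend removed and -0.39 outside the shifted runs, with 3 of the 20 genes in raised ones. HEK293 cells carry an adenoviral protein that binds p53.

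Interferon-stimulated genes, the antiviral effectors, fell in 22 of 30 cases and rose in 3, against 40.5% and 34.0% of all genes, with a median of -0.55 (-0.69, -0.59 and -0.50 by replicate). IFI6 went from 472, 492 and 488 to 139.8, 154 and 146 (log2 fold change -1.72). OAS3, which makes the activator of RNase L, went from 119, 93.3 and 91 to 6.41, 7.5 and 7.7 (-3.63), and SAMD9 from 427, 389 and 410.4 to 28.9, 27.3 and 48.6 (-3.56). Against these, the DNA sensor IFI16 was almost unread in the control, with 18 reads over 3 libraries against 2349 with ZC3H7A, a ratio of 148 (95% exact interval 93.5 to 250.3).

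Histone genes had the lowest median of the lists with more than 10 genes tested. Of 42 tested 8 rose and 27 fell, against 34.0% and 40.5% of all genes, and the list's median was -1.09. HIST2H2BE went from 407, 396 and 386 to 78.9, 90.5 and 79.4 (log2 fold change -2.24) and the linker histone HIST1H1C from 741, 773 and 745 to 249, 240.4 and 195 (-1.73). Their codons end in A or T in 11.2% and 36.8% of cases, and the median share over the list was 21.7%, so the list moved against the trend of codon endings. Most histone mRNAs lack a poly(A) tail, and poly(A) RNA was sequenced here. Histone genes also share near-identical sequences, so how reads were divided among them is uncertain.

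In growth factor and developmental pathways the members moved in both directions, as did genes in general, of which 34.0% rose and 40.5% fell. Of the genes of FGF signalling 13 of 24 rose and 5 fell. The ligand FGF5 fell by 1.72, while the transcription factors ETV4 (0.82) and ETV5 (0.84), which act downstream of the receptors, rose. Of the Notch pathway 13 of 29 rose and 11 fell, with the ligands JAG2 (1.36) and DLL3 (1.31), the receptor NOTCH3 (1.07) and the adaptor NUMBL (1.16) all in raised runs. Outside the raised and lowered runs the Notch median was -0.00473, against 0.13 for all members. Of the ephrins and their receptors 12 of 19 rose and 6 fell. EPHA3 went from 836, 833 and 789.6 to 170.0, 181 and 224 (-2.10) and the ligand EFNB1 rose by 0.95. The ephrin median was 0.23, and -0.053 with the G+C trend removed.

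In the Hippo pathway, which restrains the coactivator YAP, 9 of 22 genes rose and 11 fell, against 34.0% and 40.5% of all genes. Beside the rise of AMOT, YAP1 itself went from 1565, 1556 and 1585 to 872, 883 and 904 (log2 fold change -0.82), and the DNA-binding partners TEAD2 (1.13, in a raised run of chromosome 19) and TEAD4 (0.85) rose. Of the WNT genes 19 of 47 rose and 15 fell, with the ligand WNT10B at 1.02 and the secreted antagonist SFRP1 at 1.15. The medians of these lists, -0.14 and 0.057, changed sign with the G+C trend removed, to 0.029 and -0.01. Of the TGF-beta and BMP genes 14 of 39 rose (35.9%) and 19 fell (48.7%). Among them were BMP7 (1.05) and the inhibitor of differentiation ID4 (-0.54). MYC, in a raised run of chromosome 8, went from 1596, 1711 and 1678 to 4942, 3966 and 4589 (1.43, SE 0.076), the phosphatase DUSP4 rose by 0.86, and JUN fell by 0.71.

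Tubulin and actin genes were mostly higher, against 34.0% of all genes called up. Of the tubulins 10 of 18 rose and 3 fell, with a median of 0.63. TUBB4A, a brain beta tubulin, went from 183, 181 and 196 to 802, 722 and 670.4 (log2 fold change 1.96), and the abundant TUBA1B from 3314, 3323 and 3581 to 7805, 7192 and 6540.1 (1.07). Of the actins and stress fibre genes 14 of 24 rose and 5 fell, with ACTB at 0.83 and ACTG1 at 0.94. Reads of these near-identical tubulins and actins may be divided among copies. The median share of A/T-ending codons was 27.1% over the tubulins and 28.9% over the actin list. In the codon description, 67.5% of genes with a share of 24.6% to 30.1% were called up. With the G+C trend removed, the tubulin median went from 0.63 to 0.42 and the actin median from 0.29 to 0.18. Kinesins split, with 17 of 37 up and 15 down, against 34.0% and 40.5% of all genes. KIF26A, with 20.4% of codons ending in A or T, rose by 1.39, and the mitotic KIF20B, with 71.2%, fell by 2.05.

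Of the integrins 7 of 24 rose and 15 fell (62.5% down, against 40.5% of all genes), with ITGAV, the alpha subunit of vitronectin receptors, at -1.10 and ITGA9 at 2.01. The integrin median was -0.46, and 0.095 under a filter of at least 50 in 3 libraries. Of the collagens 10 of 31 rose and 15 fell (32.3% and 48.4%, near the 34.0% and 40.5% of all genes). The basement membrane chains COL4A3 and COL4A4, which share a promoter region and a lowered run of chromosome 2, fell by 1.48 and 1.13, and their partner COL4A5 on chromosome X by 0.89. SPARC, a collagen-binding matrix protein, rose from 42, 30.9 and 35.4 to 414, 396 and 373 (log2 fold change 3.42). AGRN, the heparan sulfate proteoglycan agrin, in the lowered run at the end of chromosome 1, fell by 0.92. P-cadherin, encoded by CDH3, fell from 444, 409 and 408 to 18, 24.6 and 17.8 (-4.33), while CDH4 rose by 0.98.

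Markers of cell identity moved within the line. KRT19, a simple-epithelial keratin, went from 575, 582 and 579 to 129.6, 105 and 108 (log2 fold change -2.34), and the epithelial adhesion molecule EPCAM fell by 0.74. KRT8 and KRT18, which pair in 1 filament, moved apart, at -0.65 and 0.58. The intermediate filaments INA (1.16) and VIM (0.86) rose, and the 3 neurofilament genes of the same list of HEK293 markers were not called. Among the renal factors 9 of 15 rose and 3 fell, against 34.0% and 40.5% of all genes. Their median was 0.25, and 0.057 with the G+C trend removed. SIX2, a factor of nephron progenitors, was at 1.26 and LHX1, of the forming nephron, at -1.11. HOX genes, which record position along the body axis, rose in 20 of 37 cases and fell in 8, with HOXA13 at 0.86 and HOXB2 at 0.93. The HOX median was 0.19, and -0.026 with the G+C trend removed.

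Potassium channel genes rose in 26 of 51 cases and fell in 13, against 34.0% and 40.5% of all genes, with a median of 0.30 and of 0.39 outside the shifted runs. KCNA6, a voltage-gated channel outside the raised runs, rose by 2.15. Over the sterol synthesis and uptake list 11 of 24 rose and 6 fell, and its median of 0.045 was -0.060 with total-read scaling. Squalene synthase FDFT1 (34.9% of codons ending in A or T) rose by 0.99. The sterol enzyme SC5D (63.4%) fell by 1.08 and the cholesterol carrier STARD4 (66.7%) by 1.26. Of the targets of NRF2, a factor of the oxidative stress response, 9 of 16 rose and 2 fell. Ferritin light chain, FTL, rose by 1.25 and KEAP1, the sensor that restrains NRF2, by 0.96, both in raised runs of chromosome 19.

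Zinc-finger genes named ZNF, many of which encode DNA-binding repressors, had about the same balance of calls as all genes. Of 457 tested 152 rose and 192 fell (33.3% and 42%, against 34.0% and 40.5% of all genes), and 159 of the 385 that could be placed in runs lie in raised ones. The median over all was -0.071, and with the G+C trend removed 0.17. Outside the shifted runs it was lower, at -0.30, so the balance over all members joins genes of unlike position. Their median share of A/T-ending codons was 57.2%. ZNF677 and ZNF320, in 1 raised run of chromosome 19, went from 32.8, 32.6 and 38.6 to 556, 500.1 and 597 (log2 fold change 3.95) and from 64.6, 59 and 62.4 to 473, 493 and 568 (3.02). ZNF22 on chromosome 10 had 4 reads over the control libraries and 1367 with ZC3H7A, a ratio of 388 (95% exact interval 151 to 1425).

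**Figure D5:**
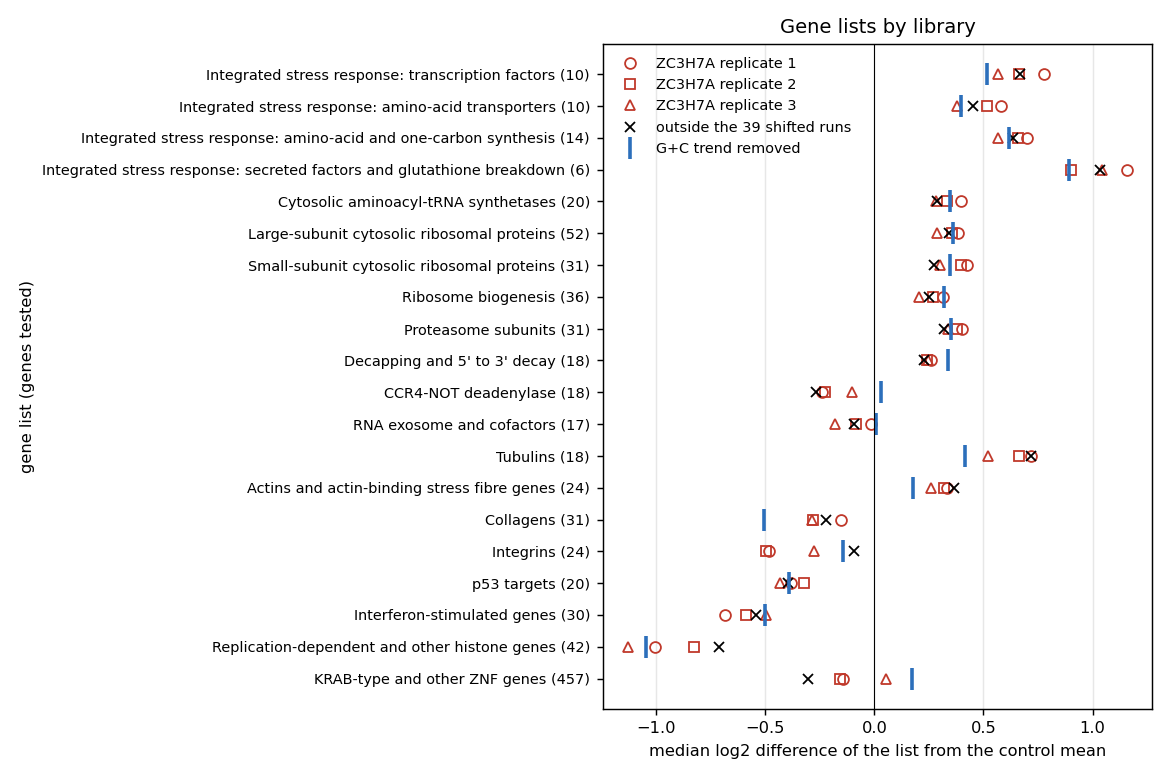
Median log2 difference from the control mean for 20 gene lists, with the number of genes tested in brackets. Red symbols are the 3 ZC3H7A libraries, black crosses the median outside the 39 shifted runs and blue bars the median with the G+C trend removed. The stress response lists lie at 0.38 or above in every ZC3H7A library, and the p53 target, interferon and histone lists lie below 0 in every one.

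ZC3H7A and ZC3H7B libraries were compared directly for the 24 abundant genes with the largest changes. In this comparison 37.5% of all 17437 genes were called by limma, 20.7% higher with ZC3H7A and 16.8% lower. Of the 12 largest rises 9 were higher with ZC3H7A than with ZC3H7B and 1 was lower, and of the 12 largest falls 5 were lower and 1 higher. ZC3H7A, whose transgene only 1 of the groups carries, is among these rises. Both sets were chosen for their size against the control, so a difference in this direction partly follows from the choice. AMOT was higher with ZC3H7A than with ZC3H7B by 1.95 log2 units (SE 0.042, limma adjusted p = 1.19e-08), and the ZC3H7B libraries were themselves above the control by 2.59. MUC16 was lower with ZC3H7A than with ZC3H7B, at -0.39 (SE 0.061, limma adjusted p = 9.67e-04). TENM1 was higher with ZC3H7A than with ZC3H7B by 2.03 (SE 0.35, limma adjusted p = 0.00178). It was low in both groups, so the size of this difference rests on few reads.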

How the data were processed

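Poly(A) RNA-seq of 6 libraries was used, 3 per group. The labels and the submitters' processing notes name STAR 2.7.10b, HTSeq, DESeq2 and the hg19 build. Their settings, the annotation and the use of strand are not given in the sources used here. The authors deposited normalized counts, a linear signal per gene, with whole reads divided by 1 factor per library. Within a tolerance of 0.01 reads, 100% of values in each library were whole reads, and the recovered reads gave the totals and the count tests.

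Groups were compared on log2(value + 1) with limma 3.58.1 in R 4.3.3 (empirical Bayes with a trend, two-sided, Benjamini-Hochberg over 17437 genes, called under 0.05). The slope on codon share was tested by exact permutation of libraries. edgeR 4.0.16 and DESeq2 1.42.0 were alternatives on the recovered reads, as were other pseudocounts, filters, scalings, a loess trend on transcript G+C (span 0.5), and leaving out each library. The edgeR test called 6227 genes up and 6727 down. In data simulated for this comparison over 17437 genes, limma recovered 36%, 82%, 90% and 100% of changes of 1.25, 1.5, 2 and 4-fold, and called 2 of 17237 unchanged genes. Only 50 genes were changed at each fold, with 1 spread per group, whereas 74.5% of genes were called in the data. The adjusted p depends on how many genes change, so these rates need not hold for the data.

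Gene names were matched to GENCODE 29 on GRCh38 for type, sequence, chromosome and gene order. Of 55773 names 34229 matched a current symbol, 1195 an older or newer one and 20321 none, and 28 date-like or repeated names were left out. A complete coding sequence was found for 18970, and the longest per gene was used. No coordinates are given, since an hg19 annotation was not used here.

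Named genes were ZC3H7A and ZC3H7B, the 12 largest rises and falls among called genes averaging 1000 or more in either group, with at least 31 reads in each group and no overlap, genes with at most 3 reads over 1 group and a mean of 50 or more in the other, and, from 65 gene lists, members among the 4 of lowest adjusted p that average 100 or more in either group. The comparison and the lists were chosen with earlier results of these data known. A few genes that meet this rule are left out of the text. STMN3 as a sequence was added after its values were seen. Intervals on ratios of reads are 95% exact (Clopper-Pearson) ones and are given where a group has 30 reads or fewer, without unique molecular identifiers. Library totals of 45.5 to 57.3 M reads set the counting precision.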

Additional observations from a re-analysis of the deposited data

How the results depend on the processing

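With the transcript G+C trend removed, over 13489 genes, 4311 genes fell, 394 rose and 633 fell by at least 2-fold, and the count of rises stayed within 1.5 times of the reported one. Among the same genes without that step 622 rose and 1103 fell by at least 2-fold. Falls of at least 2-fold numbered 3039 with no filter on low values and 1054 under a filter of 50 in 3 libraries. Without the genes of the shifted runs, an alternative chosen after the data were seen, 438 genes rose by at least 2-fold. In place of codon endings, the A+T share of the whole transcript gave a slope of -0.43 and that of the untranslated part -0.33, on scales with other ranges.

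Leaving out 1 library at a time gave 5492 to 6315 rises and 6451 to 7561 falls, 647 to 817 and 1667 to 2168 of them by at least 2-fold, and slopes of -0.24 to -0.20, the steepest without ZC3H7A replicate 3. Same-numbered control and ZC3H7A libraries had correlations of their deviations from the group means of -0.16, 0.11 and -0.014, so the numbers were not taken as a pairing. The replicate block gave 5810 rises and 6952 falls, 695 and 1797 by at least 2-fold and a slope of -0.21. With the block and the G+C trend removed together it gave 6080 rises and 4261 falls, 395 and 634 by at least 2-fold.

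The 150 genes named in the text kept their direction and their call in all 3292 pairs of a gene and a setting computed, over 22 settings. The medians of 24 of the 65 lists changed sign in some setting, and the report gives such a value beside the lists whose medians it states. A slope over 3 against 3 libraries cannot pass 0.05. Depth limits the genes with few reads, whose ratios carry wide counting intervals.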
